A study of Mus musculus with 12 samples.

Results

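Genomic imprinting was examined through 30 imprinted mouse genes, chosen by name as established members of 13 imprinted loci, out of 55471 gene identifiers in the count tables. Poly(A) RNA sequencing was carried out on 4 mouse melanoma cell lines, with 3 libraries per line: MeVa2.1 and MeVa2.2, and a dOVA line of each, MeVa2.1.dOVA and MeVa2.2.dOVA. All 4 lines were labelled wild type and untreated, and their source was given as a subcutaneous skin tumour. The series title describes MeVa2.1.dOVA as refractory to immunity. The labels do not spell out dOVA, so each dOVA line was set against the line whose name it extends. Nor is it labelled if the 3 replicates of a line were separate cultures, and p-values therefore measure only the spread between these libraries, which may be technical.

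An imprinted gene is transcribed from the copy inherited from one parent and kept silent on the other, under the control of DNA methylation laid down at imprinting control regions in the germ line. Such genes lie in clusters that usually combine protein-coding genes with a long non-coding RNA, and several of them set the balance of growth signalling before birth, IGF2 and its receptor being the best known pair. Many are switched down after birth, and loss of imprinting or of expression has been described in many tumours. The counts used here pool both parental copies, so they give the level of each gene and not which copy it came from.

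Between 16181816 and 35627069 reads per library were counted in genes, and replicate 3 was the deepest library of every line. Each library was compared with the other 2 of its line over the 13985 genes that passed the filter on low counts. Levels are given as CPM, a gene's count per 1000000 counts over all genes, and the mean correlation of log2(CPM + 1) was 0.955 to 0.979. MeVa2.2 replicate 2 had the lowest value, 0.955, and its closest library was MeVa2.2.dOVA replicate 1, at 0.979. MeVa2.1.dOVA replicate 2, at 0.966, was the lowest of the MeVa2.1 and MeVa2.1.dOVA libraries. These are called below the 2 libraries that stand apart, and results that differ without them are given both ways. They were not unique: MeVa2.2 replicate 3 and MeVa2.2.dOVA replicate 3 were at 0.958 and 0.96, and for 8 of the 12 libraries the closest library of another line correlated more highly than the mean within the line. Each library was therefore also left out in turn. Of 7 melanocyte markers, Mitf and Pmel were counted in all 12 libraries, Tyr in 11, Sox10 in 6, and Dct, Tyrp1 and Mlana in 5 each. The melanocyte sum was 9.07 to 58.3 CPM, against 229 to 1700 CPM for 6 fibroblast markers, most of it Col1a1. The 6 immune markers summed to at most 0.756 CPM, the 4 endothelial ones to at most 1.24 CPM, the 4 epithelial ones to at most 0.81 CPM and the 5 skeletal muscle ones to at most 0.989 CPM.

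The start regions of 5 members illustrate the genes that the results turn on. RefSeq windows of 300 bases (250 before the transcription start and 50 after it, GRCm38.p6) were found for 23 of the 30 genes, 36 windows in all. Each was searched on both strands for TGCCGC, the methylated hexamer recognised by the imprint-protecting zinc finger protein ZFP57. Its letters, or GCGGCA where they lie on the other strand, are printed in capitals. Slc22a18 (chr7:143473539-143473838, plus strand), which was highest in MeVa2.1 and tested only through that line, holds 2 CpG and no hexamer. Plagl1 (chr10:13090582-13090881, plus strand) and Mest (chr6:30737800-30738099, plus strand) hold 1 and 2 hexamers. Their levels varied among libraries, and Mest was tested only through its highest libraries, as given below. Grb10 (chr11:12037371-12037670, minus strand) was abundant in every library, holds 45 CpG and 1 hexamer. Meg3 (chr12:109540746-109541045, plus strand) was not counted in any library, holds 13 CpG and 1 hexamer. Mest, Grb10 and Meg3 each also have a start, not printed, whose window holds no hexamer, with 8, 9 and 1 CpG.
Slc22a18: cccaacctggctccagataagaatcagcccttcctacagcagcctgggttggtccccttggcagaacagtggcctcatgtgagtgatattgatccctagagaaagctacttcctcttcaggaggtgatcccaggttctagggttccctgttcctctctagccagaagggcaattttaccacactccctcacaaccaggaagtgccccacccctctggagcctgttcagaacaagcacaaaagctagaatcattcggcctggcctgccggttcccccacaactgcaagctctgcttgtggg
Plagl1: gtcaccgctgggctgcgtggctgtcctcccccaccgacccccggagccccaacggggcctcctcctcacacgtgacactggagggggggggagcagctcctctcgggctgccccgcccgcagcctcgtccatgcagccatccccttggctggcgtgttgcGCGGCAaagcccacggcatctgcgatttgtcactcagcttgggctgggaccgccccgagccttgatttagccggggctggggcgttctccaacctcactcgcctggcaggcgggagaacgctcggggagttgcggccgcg
Mest: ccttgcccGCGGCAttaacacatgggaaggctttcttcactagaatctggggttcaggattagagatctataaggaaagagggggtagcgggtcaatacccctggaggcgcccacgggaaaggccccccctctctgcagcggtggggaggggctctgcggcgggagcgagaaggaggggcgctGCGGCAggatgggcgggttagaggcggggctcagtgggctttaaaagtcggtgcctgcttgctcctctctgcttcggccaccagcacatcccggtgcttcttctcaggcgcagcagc
Grb10: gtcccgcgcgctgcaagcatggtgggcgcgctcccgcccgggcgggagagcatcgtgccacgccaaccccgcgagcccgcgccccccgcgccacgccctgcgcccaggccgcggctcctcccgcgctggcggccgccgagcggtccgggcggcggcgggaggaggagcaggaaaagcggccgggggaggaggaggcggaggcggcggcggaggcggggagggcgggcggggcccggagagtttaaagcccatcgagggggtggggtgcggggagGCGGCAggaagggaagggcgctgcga
Meg3: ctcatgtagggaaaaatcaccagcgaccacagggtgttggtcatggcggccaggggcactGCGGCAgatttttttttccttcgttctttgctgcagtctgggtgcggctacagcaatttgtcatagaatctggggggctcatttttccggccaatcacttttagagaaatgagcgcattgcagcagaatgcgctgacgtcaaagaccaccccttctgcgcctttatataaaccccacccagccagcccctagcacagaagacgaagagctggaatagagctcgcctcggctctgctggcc
The hexamer occurred in 9 of the 36 member windows (25%), which belong to 8 genes, and in 11.6% of the 32851 windows of all genes. No 2 matches overlapped. Alternative starts of one gene share bases, so these windows are not independent. The median number of CpG was 13 in member windows and 7 in all windows. High, varying and uncounted genes all occur among the 8 with a match.

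Expression of imprinted genes in these lines was concentrated in few members. Gnas, Igf2r, Grb10, Peg10, Impact and Sgce exceeded 10 CPM in every library and made up 99.0% to 99.8% of the members' summed level, which was 2732 to 3751 CPM per library. Of the other 24 genes, 5 passed the filter (Airn, Kcnq1ot1, Slc22a18, Mest and Plagl1). A further 4 held at least 20 counts over all libraries without passing it (H19, Cdkn1c, Peg3 and Nespas), and 8 held 1 to 19 counts. The remaining 7 had no count in any library: Igf2, Usp29, Zim1, Meg3, Snrpn, Ndn and Magel2. With 274848917 gene counts in all, 0 counts allows a level of up to 0.0109 CPM (3 counts, counting error only). Members were sorted by the parent whose copy is active where the gene is imprinted. On that basis 3 of 12 maternally and 3 of 18 paternally expressed members exceeded 10 CPM in every library. Gnas is among these maternal members, although it is imprinted in only some tissues. Of the members without a count, 2 are maternally and 5 paternally expressed.

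**Figure D1:**
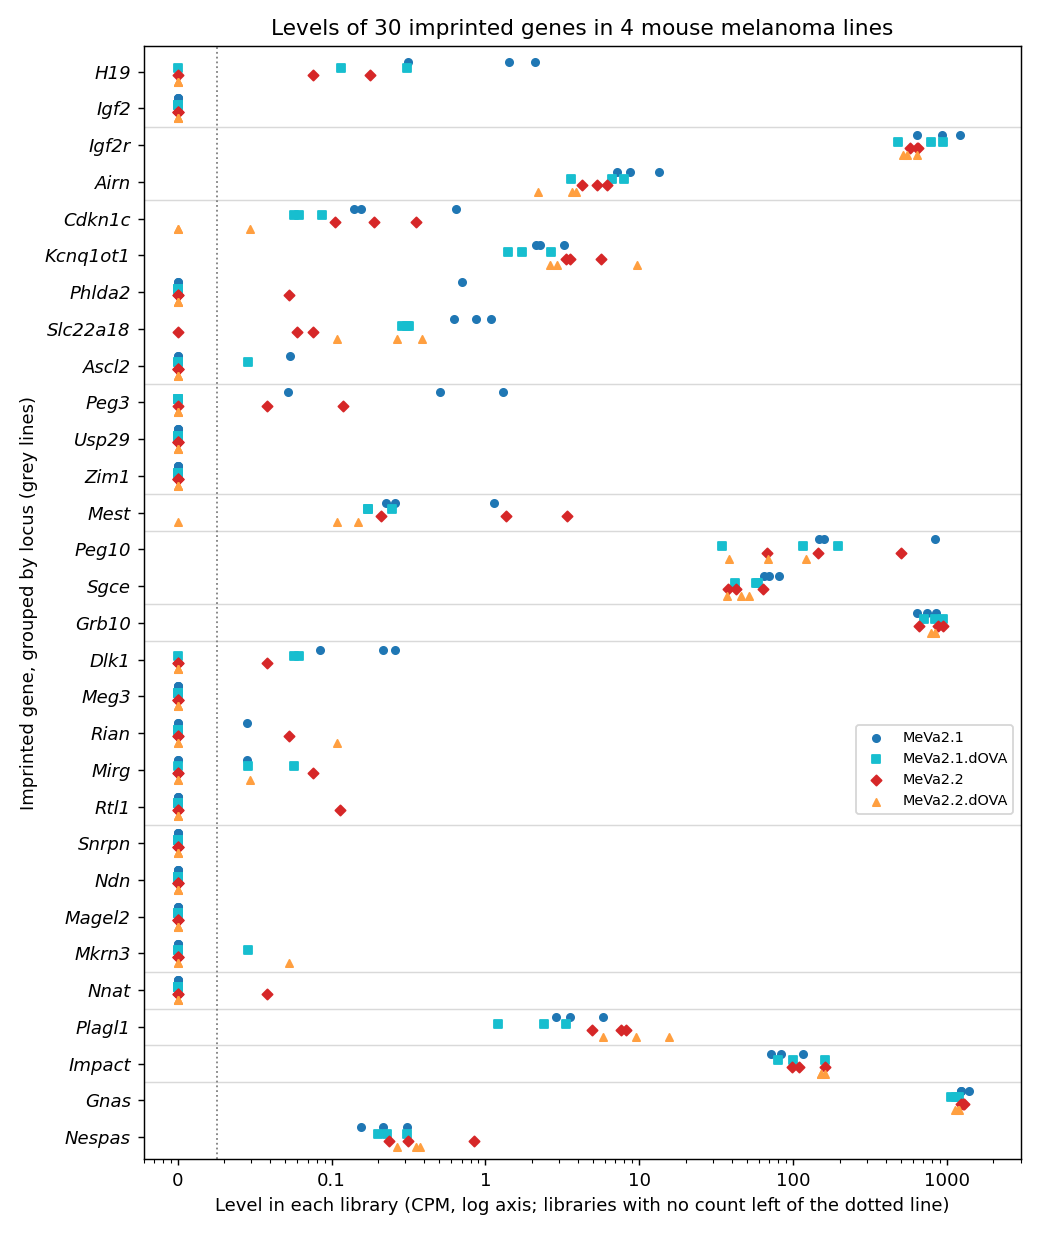
Level of each of the 30 imprinted genes in each of the 12 libraries, in CPM on a log axis, with 1 point per library, coloured by line and grouped by locus between grey lines. Points left of the dotted line are libraries with no count. The 6 abundant genes lie above 10 CPM in every library, and 7 genes have no count anywhere.

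Per kilobase of exon, which allows genes to be compared, Gnas was the highest member at a mean of 108 CPM per kb over the 12 libraries (95.1 to 123). Gnas lies at chr2:174284320-174346744 and encodes the stimulatory G protein alpha subunit that couples receptors to adenylyl cyclase, and it is imprinted in only some tissues. Grb10, an adaptor that dampens insulin and IGF1 receptor signalling, followed at 88.7 CPM per kb (70.4 to 104). Igf2r, the receptor that carries IGF2 to lysosomes, was at 76.4 CPM per kb (51.7 to 130). Peg10, a retrotransposon-derived gene required in the placenta, was at 30.4 CPM per kb (5.15 to 125). Impact, a regulator that restrains the amino acid sensor GCN2, was at 23.4 CPM per kb (13.9 to 31.6). The ranges of neighbours in this order overlapped.

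The members varied to very different degrees among the 12 libraries. The highest library exceeded the lowest by 1.3-fold in Gnas, 1.48-fold in Grb10, 2.18-fold in Sgce, 2.27-fold in Impact and 2.52-fold in Igf2r. The spread was wider in Airn (6.19-fold), Kcnq1ot1 (6.84-fold), Plagl1 (12.8-fold) and Peg10 (24.3-fold). In an edgeR quasi-likelihood test of any difference among the 4 lines, adjusted by Benjamini-Hochberg over all genes tested, 3 of the 11 tested members passed an adjusted p of 0.05: Slc22a18 (0.00969), Plagl1 (0.0399) and Mest (0.0469). Of all tested genes, 14.2% passed. Plagl1 passed in 11 of 18 alternative settings and Mest in 8. Slc22a18 reached the filter only through MeVa2.1, the line where it is highest, so its presence among the tested members and among those that passed is no support and is given as a description. The same holds for Mest, which reached the filter only through MeVa2.1 replicate 1 and MeVa2.2 replicates 1 and 3, its highest libraries. Without the 2 libraries that stand apart, 4 members passed, H19 being the addition. In that fit the filter needed only 2 libraries instead of 3. H19 entered it only through MeVa2.1 replicates 1 and 3, where it is highest, so its passing is no support. Airn missed the threshold at 0.0511, and Gnas and Grb10 were at 0.601 and 0.904.

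The comparisons between lines asked whether the imprinted genes differ between each dOVA line and its namesake and between the MeVa2.1 and MeVa2.2 families. Slc22a18 was higher in MeVa2.1 than in MeVa2.2, and Plagl1 was lower in MeVa2.1.dOVA than in MeVa2.2.dOVA, both by adjusted p in the same edgeR fit. Slc22a18 entered the tested genes only through MeVa2.1, and Mest only through 3 libraries of MeVa2.1 and MeVa2.2. The counts and medians that include them are therefore descriptions. No member passed in MeVa2.1.dOVA against MeVa2.1 (0 of 11, where 0.486% of all genes passed) or in MeVa2.2.dOVA against MeVa2.2 (0 of 11, against 1.99%). For MeVa2.1 against MeVa2.2 it was 1 of 11, against 4.48% of all genes. For the dOVA lines against each other it was 1 of 11, against 11.3%. The difference between the dOVA differences passed in 0 of 11, against 0.0858%. At an unadjusted p under 0.05 these 3 counts of 0 become 1 (Slc22a18), 2 (Slc22a18 and Mest) and 1 (Slc22a18). With DESeq2 they are 0, 1 (Mest) and 0. With the replicate number as a block in the edgeR fit they are 1 (Peg10), 2 (Mest and Peg10) and 0. That block passed 2.60% of all genes in MeVa2.1.dOVA against MeVa2.1. For the other alternative counts no share of all genes is given, so they are descriptions. The median log2 difference of the 11 members was -0.46 in MeVa2.1.dOVA against MeVa2.1 and -0.13 in MeVa2.2.dOVA against MeVa2.2, where those of all tested genes were 0 and -0.02. It was 0.04 for MeVa2.1 against MeVa2.2 and 0.25 for the dOVA lines, against -0.02 and 0.01. These comparisons share libraries and are not independent of each other.

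**Figure D2:**
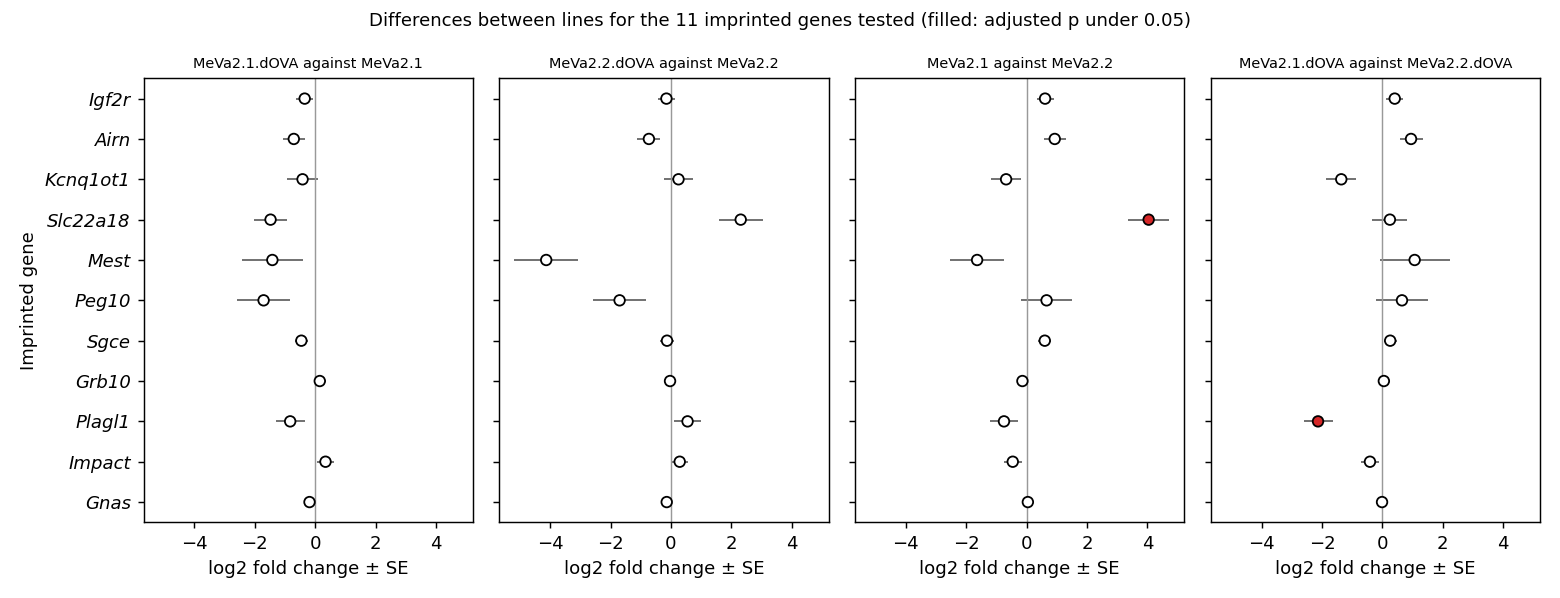
Log2 fold change with its standard error (SE) for the 11 tested imprinted genes in each of 4 comparisons of lines, with filled points for an adjusted p under 0.05. Slc22a18 is filled in MeVa2.1 against MeVa2.2 (4.04) and Plagl1 in the dOVA lines (-2.13), and Gnas and Grb10 lie close to 0 in all 4.

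In the Kcnq1ot1 domain on chromosome 7, Slc22a18 encodes a transporter of the organic cation family. Its gene lies at chr7:143473736-143499334. Slc22a18 was at 1.08, 0.625 and 0.87 CPM in MeVa2.1 and at 0.309, 0.287 and 0.317 CPM in MeVa2.1.dOVA. It was at 0.0592, 0 and 0.0761 CPM in MeVa2.2 and at 0.108, 0.267 and 0.386 CPM in MeVa2.2.dOVA. All 3 MeVa2.1 libraries lay above the other 9, and all 3 MeVa2.2 libraries lay below the other 9. The gene passed the filter only through the MeVa2.1 libraries, so it had to differ to be tested, and its level is near the limit of the depth in MeVa2.2. The log2 difference of MeVa2.1 against MeVa2.2 was 4.04 (SE 0.69, adjusted p = 0.00694 by edgeR), from 63 and 3 counts. With no filter, when every gene counted was tested, the adjusted p was 0.00312. The 63 and 3 counts give a ratio of 17.8 with a 95% counting interval of 5.82 to 88.6. That interval leaves out the spread between replicates. With 1 replicate left out at a time the adjusted p was 0.00849 to 0.0337, and without the 2 libraries that stand apart it was 0.0247. None of the 11 tested cell type markers passed in this comparison by edgeR, although 5 had an unadjusted p under 0.05 and DESeq2 called 1 (Pmel). With the replicate number as a block 3 melanocyte markers passed as lower in MeVa2.1, Tyrp1 (adjusted p = 0.0201), Dct (0.0158) and Pmel (0.0385), where 9.51% of all genes did. The melanocyte sum was 14.7 to 26.6 CPM in MeVa2.1 and 10.5 to 58.3 CPM in MeVa2.2, and its part in the Slc22a18 difference was not tested. In bulk RNA, fewer cells of a type and less RNA per cell cannot be told apart.

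The dOVA lines did not share the direction of Slc22a18. Its log2 difference was -1.48 (SE 0.55, adjusted p = 0.339) in MeVa2.1.dOVA against MeVa2.1 and 2.31 (SE 0.73, adjusted p = 0.138) in MeVa2.2.dOVA against MeVa2.2, both by edgeR. In each pair the libraries did not overlap. The difference between these 2 differences was -3.79 (SE 0.91) with an unadjusted p of 0.00142 and an adjusted p of 0.159 by edgeR, which does not pass over all genes.

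The domain's long non-coding RNA Kcnq1ot1, which silences its neighbours on the paternal chromosome, lies at chr7:143203458-143296549 within the Kcnq1 gene, on the opposite strand. Its levels were 2.27, 2.13 and 3.26 CPM in MeVa2.1 and 2.66, 1.72 and 1.41 CPM in MeVa2.1.dOVA. They were 5.62, 3.53 and 3.35 CPM in MeVa2.2 and 9.65, 2.61 and 2.91 CPM in MeVa2.2.dOVA. Every MeVa2.1 library lay below every MeVa2.2 library, and MeVa2.2.dOVA replicate 1 was the highest. The log2 difference between the dOVA lines was -1.36 (SE 0.5, adjusted p = 0.109 by edgeR). DESeq2 gave an adjusted p of 0.0495 for it. A single library decided its size: without MeVa2.2.dOVA replicate 1 it was -0.5 (adjusted p = 0.522 by edgeR), and without MeVa2.2.dOVA replicate 3 it was -1.66 (0.0466). Cdkn1c, the cyclin-dependent kinase inhibitor p57, held 39 counts in all, of which MeVa2.1 held 20 and MeVa2.2 held 13, and their dOVA lines 5 and 1. Phlda2, a restrainer of placental growth, held 14 counts, of which 13 came from MeVa2.1 replicate 1. Ascl2, a transcription factor of trophoblast and intestinal stem cells, held 2 counts.

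Plagl1 encodes a zinc finger transcription factor with growth-restraining activity and lies at chr10:13060504-13131694. Its levels were 5.78, 3.54 and 2.89 CPM in MeVa2.1 and 2.41, 3.33 and 1.21 CPM in MeVa2.1.dOVA. They were 7.63, 8.22 and 4.94 CPM in MeVa2.2 and 15.5, 9.55 and 5.82 CPM in MeVa2.2.dOVA. The dOVA lines did not overlap, and the parental lines did. The log2 difference of MeVa2.1.dOVA against MeVa2.2.dOVA was -2.13 (SE 0.48, adjusted p = 0.0163 by edgeR). Replicate choice decided this call: the adjusted p was 0.0577 without MeVa2.1.dOVA replicate 1, 0.057 without MeVa2.1.dOVA replicate 3 and 0.0665 when replicate 1 of MeVa2.2.dOVA was left out. Without the 2 libraries that stand apart it was 0.0194. None of the 11 tested cell type markers passed in this comparison by edgeR, with 1 at an unadjusted p under 0.05 and 0 by DESeq2. With the replicate number as a block 2 fibroblast markers passed as higher in MeVa2.1.dOVA, Pdgfra (adjusted p = 0.0465) and Col1a1 (0.0164), where 22% of all genes passed. The fibroblast sum was 752 to 1390 CPM in MeVa2.1.dOVA and 229 to 1030 CPM in MeVa2.2.dOVA, and its part in the Plagl1 difference was not tested.

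Mest, which encodes a protein of the alpha/beta hydrolase family, lies at chr6:30723547-30748465. Mest was at 1.36, 0.211 and 3.39 CPM in MeVa2.2 and at 0.108, 0 and 0.148 CPM in MeVa2.2.dOVA. It was at 1.13, 0.26 and 0.225 CPM in MeVa2.1 and at 0.247, 0.172 and 0.173 CPM in MeVa2.1.dOVA. Single libraries carried most of the counts, replicate 1 in MeVa2.1 and replicates 1 and 3 in MeVa2.2. Mest passed the filter on low counts only through these 3 libraries, none of them of a dOVA line, so its tests are given as a description. The MeVa2.2 and MeVa2.2.dOVA libraries did not overlap, and their totals of 116 and 7 counts give a ratio of 18.9 (95% counting interval 8.89 to 48.1). This interval leaves out the spread between replicates, and MeVa2.2 replicate 3 alone held 89 counts. The nearest libraries, MeVa2.2 replicate 2 and MeVa2.2.dOVA replicate 3, held 4 and 5 counts. The log2 difference of MeVa2.2.dOVA against MeVa2.2 was -4.13 (SE 1.06) and did not pass (adjusted p = 0.0769 by edgeR). It passed without MeVa2.2 replicate 2, at a log2 difference of -4.64 and an adjusted p of 0.0275, and without both libraries that stand apart (0.0286). With DESeq2 the adjusted p was 0.00628. Without MeVa2.2 replicate 3 the log2 difference was -3.01 with an adjusted p of 0.275 by edgeR, the highest of any fit with 1 library left out. In the same comparison 3 of 6 fibroblast markers (Pdgfra, Thy1 and Dcn) passed as lower, and the fibroblast sum was 520 to 1700 CPM in MeVa2.2 and 229 to 1030 CPM in MeVa2.2.dOVA. None of the 6 was at 0 in all libraries of either line. Of 5 tested melanocyte markers none passed by edgeR (lowest adjusted p 0.0853, for Pmel), while DESeq2 called Pmel. The melanocyte sum was 10.5 to 58.3 CPM in MeVa2.2 and 9.07 to 16.6 CPM in MeVa2.2.dOVA. MeVa2.2 replicate 1 had the most Tyrp1, Dct and Pmel, at 12.3, 15.9 and 6.39 CPM, and in MeVa2.2 replicate 2, where Mest was lowest in its line, Tyrp1 and Dct had no count. The part of these fibroblast and melanocyte markers in the Mest result was not tested.

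Peg10 and Sgce start from neighbouring, divergent promoters on chromosome 6. Peg10 was at 147, 158 and 835 CPM in MeVa2.1 and at 116, 34.3 and 196 CPM in MeVa2.1.dOVA. It was at 145, 67.5 and 504 CPM in MeVa2.2 and at 68.3, 38.1 and 121 CPM in MeVa2.2.dOVA. Replicate 3 was the highest library of each line, and the lines overlapped in all 4 comparisons. Each dOVA library lay below the library of its namesake with the same number, in 3 of 3 pairs of both families. The log2 difference was -1.71 (SE 0.87, adjusted p = 0.507) in MeVa2.1.dOVA against MeVa2.1 and -1.7 (SE 0.87, adjusted p = 0.356) in MeVa2.2.dOVA against MeVa2.2, both by edgeR. Without MeVa2.1 replicate 3 the first was -0.43 (adjusted p = 0.9), and without MeVa2.2 replicate 3 the second was -0.51 (0.874). Adding the replicate number as a block to the fit of all libraries gave -1.59 for the first with an adjusted p of 0.0433, where 2.60% of all genes passed instead of 0.486%. For the second the block gave -1.34 with an adjusted p of 0.043 by edgeR. Replicate 3 was also the deepest library of each line, with 26291546 to 35627069 counts against 16181816 to 19204452 in the others, and the part of depth in the Peg10 levels was not tested.

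Sgce, which encodes epsilon-sarcoglycan, did not show that spread. It was at 64.3, 80.9 and 69.9 CPM in MeVa2.1, at 58.8, 42.1 and 57.3 CPM in MeVa2.1.dOVA, at 63.8, 37.9 and 42.8 CPM in MeVa2.2 and at 46.1, 37.1 and 51.7 CPM in MeVa2.2.dOVA. All 3 MeVa2.1 libraries lay above the other 9. The log2 difference was 0.6 (SE 0.22, adjusted p = 0.164) for MeVa2.1 against MeVa2.2 and -0.46 (SE 0.22, adjusted p = 0.458) for MeVa2.1.dOVA against MeVa2.1, both by edgeR. Per kilobase, the mean of Peg10 was 30.4 and that of Sgce 5.12 CPM per kb.

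**Figure D3:**
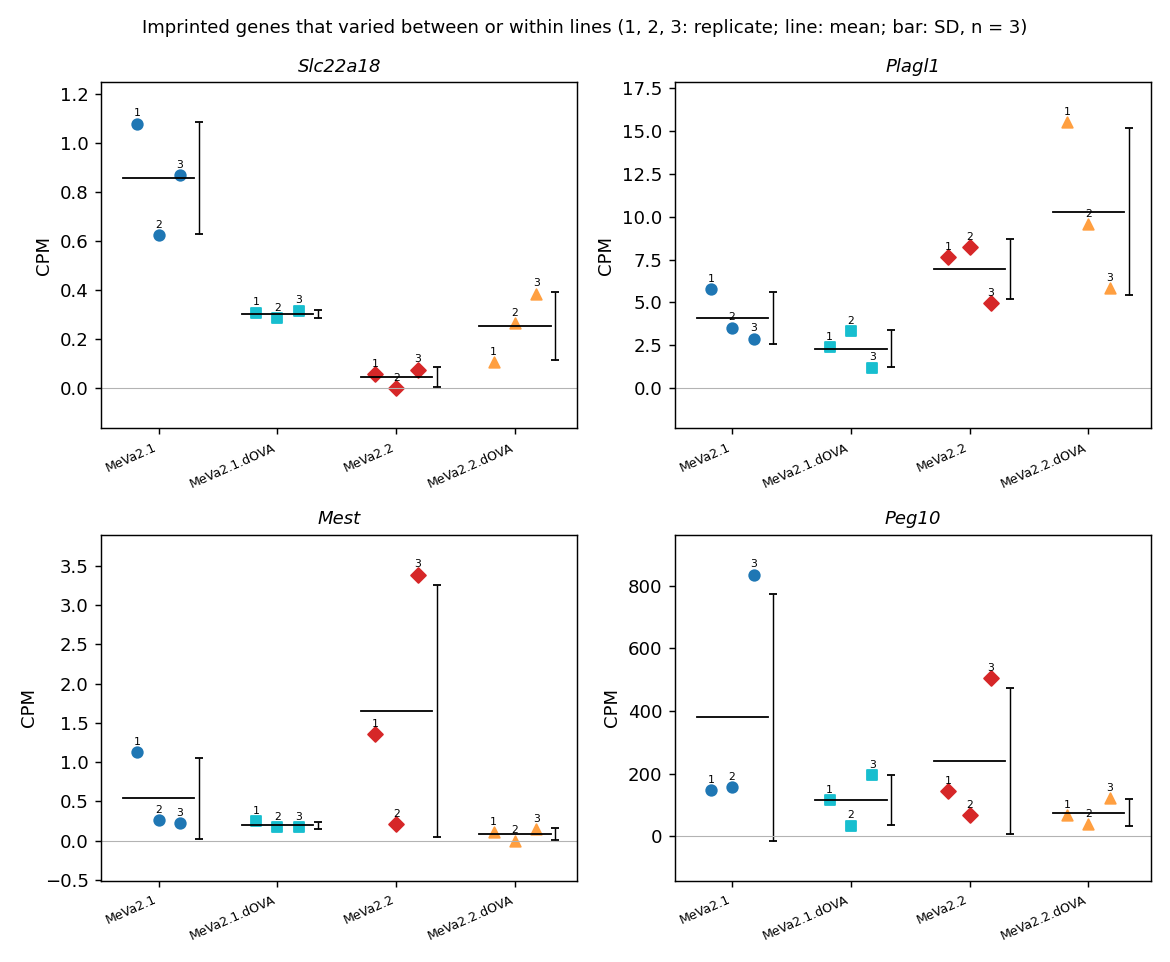
CPM of Slc22a18, Plagl1, Mest and Peg10 in each library (points numbered by replicate) of the 4 lines, with the mean as a line and the SD as a bar (n = 3 per line). Slc22a18 is highest in the 3 MeVa2.1 libraries, and Plagl1 separates the dOVA lines. Mest is highest in replicates 1 and 3 of MeVa2.2, and Peg10 in replicate 3 of each line.

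Igf2r and Airn overlap on chromosome 17 in opposite directions. Airn is the non-coding RNA whose transcription silences Igf2r on the paternal chromosome. Igf2r was at 929, 1210 and 635 CPM in MeVa2.1, at 781, 942 and 481 CPM in MeVa2.1.dOVA, at 635, 576 and 644 CPM in MeVa2.2 and at 633, 515 and 550 CPM in MeVa2.2.dOVA. Airn was at 8.69, 13.5 and 7.19 CPM in MeVa2.1, at 6.67, 7.98 and 3.6 CPM in MeVa2.1.dOVA, at 6.16, 5.32 and 4.26 CPM in MeVa2.2 and at 3.88, 2.19 and 3.65 CPM in MeVa2.2.dOVA. In both genes replicate 2 was the highest and replicate 3 the lowest library of each MeVa2.1 line. The log2 difference of MeVa2.1 against MeVa2.2 was 0.61 (SE 0.28, adjusted p = 0.287) for Igf2r and 0.93 (SE 0.37, adjusted p = 0.213) for Airn, both by edgeR. Airn libraries did not overlap there, nor in MeVa2.2.dOVA against MeVa2.2, where the log2 difference was -0.73 (SE 0.38, adjusted p = 0.362). Airn was at a mean of 1.69 CPM per kb and Igf2r at 76.4 CPM per kb.

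Grb10, Impact and Gnas did not separate the lines. Grb10 means were 744 ± 105, 832 ± 117, 825 ± 153 and 823 ± 28.9 CPM (SD, n = 3) in the order MeVa2.1, its dOVA line, MeVa2.2, its dOVA line. In the same order Impact was at 89.6, 113, 123 and 154 CPM on average, and Gnas at 1280, 1140, 1260 and 1170 CPM. Their adjusted p for any difference among the lines was 0.904, 0.289 and 0.601 by edgeR. Gnas libraries of each dOVA line nevertheless all lay below those of its namesake. Over all members the libraries did not overlap in 3 of 11 genes for MeVa2.1.dOVA against MeVa2.1 (all genes, 21.0%) and in 4 for MeVa2.2.dOVA against MeVa2.2 (17.3%). They did not overlap in 4 for MeVa2.1 against MeVa2.2 (23.5%) and in 2 for the dOVA lines (30%). Nespas, the antisense RNA of the Gnas locus, held 90 counts in all and was counted in every library, between 0.156 and 0.837 CPM.

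The H19-Igf2 locus was counted almost only through H19, the maternally expressed non-coding RNA that shares enhancers with the fetal growth factor gene Igf2. H19 held 39, 6 and 51 counts in the MeVa2.1 libraries and 5, 0 and 4 in those of MeVa2.1.dOVA. The MeVa2.2 libraries held 3, 0 and 2 counts, and those of MeVa2.2.dOVA none. The MeVa2.1 counts were above those of every other library, replicate 2 by the smallest margin. Scaled to the library totals, 96 against 5 counts made MeVa2.1 16.3-fold higher than MeVa2.2 (95% counting interval 6.74 to 51.3), and it was 9.94-fold higher than MeVa2.1.dOVA (5.02 to 22.4). These intervals cover counting error only and not the spread between replicates. H19 was below the filter and was not tested, and without the filter it passed in MeVa2.1 against MeVa2.2. Igf2 had no count, although 62.8% of its exon bases are shared with Gm49394 and Mir483 on its strand, where reads may go uncounted as ambiguous. Gm49394 had no count either.

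Peg3, a zinc finger gene that names its domain on chromosome 7, showed a like pattern. It held 24, 1 and 18 counts in MeVa2.1, none in MeVa2.1.dOVA or MeVa2.2.dOVA, and 2, 0 and 1 in MeVa2.2. Its 43 counts in MeVa2.1 lay almost wholly in replicates 1 and 3. MeVa2.1 was at least 13.4-fold higher than MeVa2.1.dOVA, taking 3 counts over the line as the floor, and 12.1-fold higher than MeVa2.2 (95% counting interval 3.89 to 61.2). That floor and that interval leave out the spread between replicates. Peg3 was not tested, and without the filter it passed in MeVa2.1.dOVA against MeVa2.1. Its neighbours Usp29, a ubiquitin protease gene, and Zim1, another zinc finger gene, had no count.

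**Figure D4:**
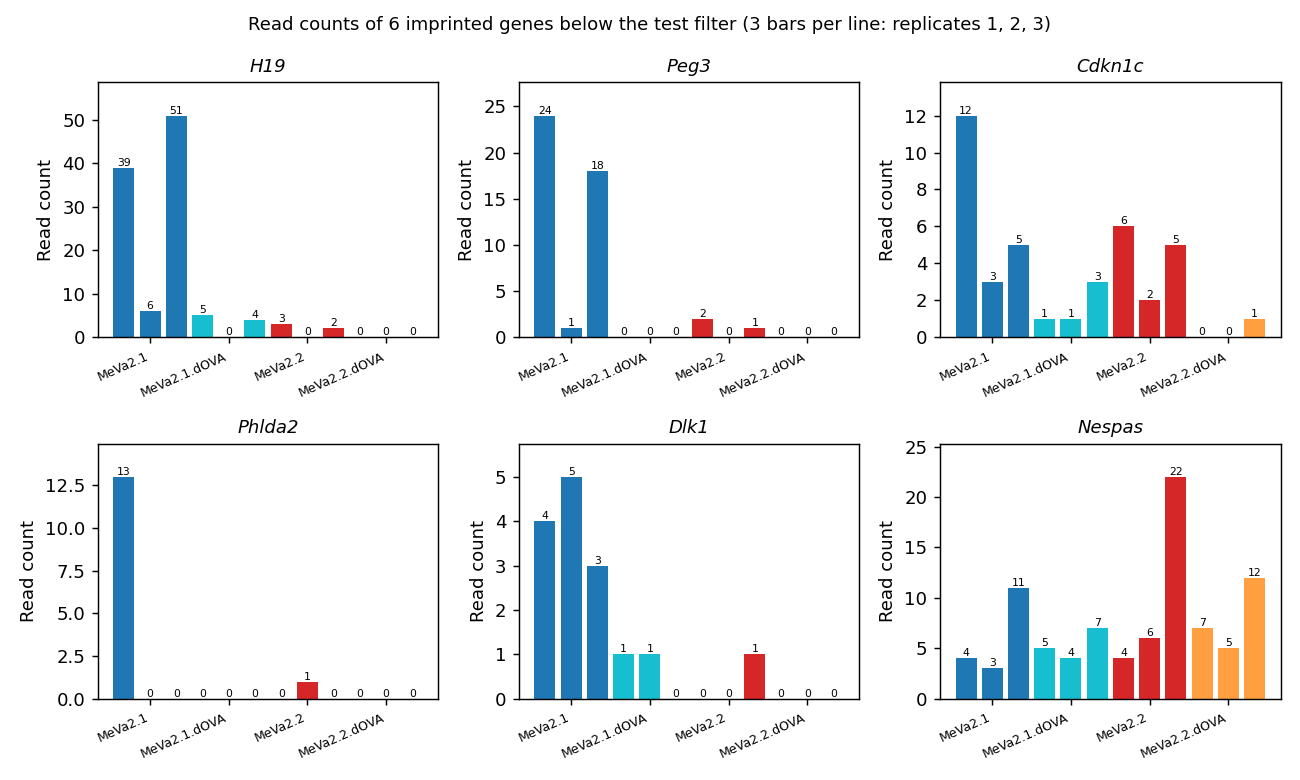
Read counts of H19, Peg3, Cdkn1c, Phlda2, Dlk1 and Nespas, 6 imprinted genes below the test filter, in each library (3 bars per line, replicates 1 to 3). H19, Peg3 and Phlda2 counts lie mostly in MeVa2.1, with Phlda2 in 1 library, and Nespas is counted in all 12 libraries.

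The Dlk1-Meg3 domain on chromosome 12 was close to uncounted. Dlk1, a membrane-bound relative of the Notch ligands, held 15 counts, 12 of them in MeVa2.1 in all 3 of its libraries. MeVa2.1 was 5.59-fold higher than MeVa2.1.dOVA (95% counting interval 1.24 to 51.4, without the spread between replicates). The maternal non-coding RNAs of the domain, which host many microRNAs and small nucleolar RNAs, held 0 counts in Meg3, 4 in Rian and 6 in Mirg. Rtl1, a retrotransposon-derived gene needed in placental vessels, held 3 counts. Mature microRNAs and RNAs without a poly(A) tail are not measured by these libraries.

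The Snrpn-Ndn domain on chromosome 7, the counterpart of the human Prader-Willi region, was likewise near 0. Snrpn, which encodes a neuronal splicing protein, and the MAGE family genes Ndn and Magel2 had no count. Mkrn3, a ring finger gene known as a brake on puberty, held 2 counts. Part of Snrpn (27.3% of exon bases) is shared with overlapping genes on its strand, among them Snurf, which had no count. Nnat, a brain-enriched membrane protein gene, held 1 count.

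Other imprinted genes were taken from a list of 55, of which 30 passed the filter. In MeVa2.1.dOVA against MeVa2.1, 2 of 30 passed, where 0.486% of all genes did, both lower: Rasgrf1, a Ras exchange factor, by -1.91 (SE 0.31, adjusted p = 0.0277) and Phactr2, a phosphatase and actin regulator, by -1.8 (SE 0.28, adjusted p = 0.0261) on the log2 scale by edgeR. Rasgrf1 was at 27.8, 18.7 and 22.4 CPM in MeVa2.1 and at 9.21, 3.62 and 5.67 CPM in MeVa2.1.dOVA. Phactr2 was at 9.18, 6.61 and 13.1 CPM in MeVa2.1 and at 3.09, 2.93 and 2.3 CPM in MeVa2.1.dOVA. Neither gene overlapped between the 2 lines. In this comparison Dcn, 1 of 6 fibroblast markers, passed as lower. Thy1 (log2 difference -6.85, adjusted p = 0.0516 by edgeR) and Fap (-4.86, 0.125) did not overlap between the lines and were lower in MeVa2.1.dOVA. Both passed with the replicate number as a block (0.0301 and 0.0429), which makes 3 of 6, and DESeq2 called the same 3. The fibroblast sum, mostly Col1a1, was 805 to 1240 CPM in MeVa2.1 and 752 to 1390 CPM in MeVa2.1.dOVA. The part of these markers in the Rasgrf1 and Phactr2 results was not tested. None of 30 passed in MeVa2.2.dOVA against MeVa2.2, where 1.99% of all genes did (lowest adjusted p 0.104 by edgeR, for Herc3). There 5 of 30 had an unadjusted p under 0.05, and DESeq2 called 3 (Herc3, Sfmbt2 and Htr2a).

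For MeVa2.1 against MeVa2.2, 3 of the 30 passed, against 4.48% of all genes, Herc3 and Qpct higher and Rasgrf1 lower. For the dOVA lines 7 passed, where 11.3% of all genes did, with Herc3, Atp10a and Qpct higher in MeVa2.1.dOVA and Sfmbt2, Pon3, Rasgrf1 and Phactr2 lower. Herc3, a ubiquitin ligase gene, differed by 5.33 (SE 0.95, adjusted p = 0.00463) between the dOVA lines on the log2 scale by edgeR. It was at 22.4, 7.18 and 19 CPM in MeVa2.1.dOVA and at 0.324, 0 and 0.802 CPM in MeVa2.2.dOVA. Qpct, which encodes glutaminyl cyclase, was at 105, 152 and 70.9 CPM against 16.6, 16.4 and 5.52 CPM in the same lines. Sfmbt2, a Polycomb group gene of the placenta, was at 7.85, 18.8 and 10.3 CPM against 40.4, 39 and 36.3 CPM. These 3 genes did not overlap between the dOVA lines. With the replicate number as a block 11 of 30 passed between the dOVA lines, against 22% of all genes.

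**Figure D5:**
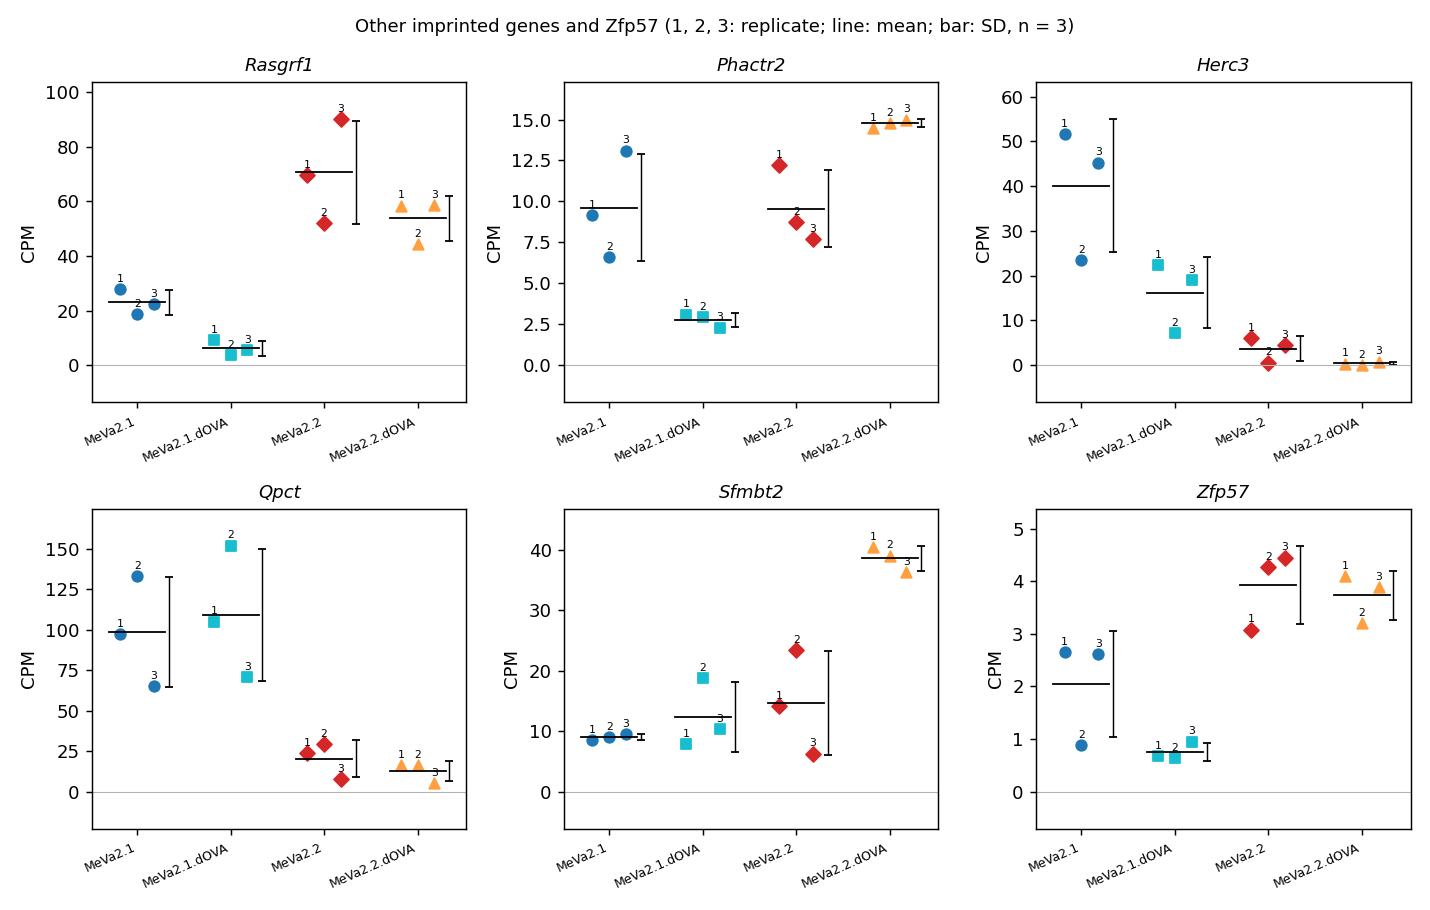
CPM of 5 other imprinted genes (Rasgrf1, Phactr2, Herc3, Qpct and Sfmbt2) and of Zfp57 in each library (points numbered by replicate), with the mean as a line and the SD as a bar (n = 3 per line). Herc3 and Qpct are higher in the MeVa2.1 family, and Rasgrf1, Phactr2 and Zfp57 have their lowest mean in MeVa2.1.dOVA.

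Of 22 genes that maintain imprints or DNA methylation, 20 passed the filter. Of these 1 passed for any difference among the lines (all genes, 14.2%) and between the dOVA lines (11.3%), a share below that of all genes in both cases. With the replicate number as a block 2 passed between the dOVA lines, against 22% of all genes. None passed in the other comparisons of lines by edgeR, where 1, 0 and 3 of 20 had an unadjusted p under 0.05 in the MeVa2.1 pair, the MeVa2.2 pair and the parental lines, and DESeq2 called 1 (Zfp57), 0 and 0. Zfp57, which binds the methylated hexamer at imprinting control regions, was at 0.68, 0.632 and 0.95 CPM in MeVa2.1.dOVA and at 4.1, 3.2 and 3.89 CPM in MeVa2.2.dOVA. It was at 2.65, 0.885 and 2.61 CPM in MeVa2.1 and at 3.08, 4.27 and 4.45 CPM in MeVa2.2. The dOVA lines did not overlap, and the log2 difference was -2.25 (SE 0.42, adjusted p = 0.00564 by edgeR). Its companion Trim28 was at 267 ± 79.6, 266 ± 41.3, 318 ± 102 and 280 ± 90.7 CPM (SD, n = 3) in the same order of lines as above, and the methyltransferase Dnmt1 at 81.3 to 336 CPM over the 12 libraries.

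In the IGF pathway, on which Igf2r and Grb10 act, 13 of 16 listed genes passed the filter. The ligand genes were low, with Igf2 at 0 counts and Igf1 at 0 to 1.16 CPM, whereas the receptor genes Igf1r and Insr were at 82.1 to 148 and 86.6 to 152 CPM. Igfbp3, the main serum IGF binding protein, was at 3240, 6710 and 2980 CPM in MeVa2.1 and at 720, 1230 and 1010 CPM in MeVa2.2, without overlap (log2 difference 2.15, SE 0.34, adjusted p = 0.00466 by edgeR). It was also higher in MeVa2.1.dOVA than in MeVa2.2.dOVA (1.94, SE 0.34, adjusted p = 0.00432 by edgeR). Igfbp4 passed as higher in MeVa2.1 than in MeVa2.2 (2.45, SE 0.59, adjusted p = 0.0398 by edgeR) and Igfbp7 as higher in MeVa2.1.dOVA than in MeVa2.2.dOVA (3.11, SE 0.86, adjusted p = 0.0389 by edgeR). That makes 2 of 13 between the parental lines, against 4.48% of all genes, and 2 of 13 between the dOVA lines, against 11.3%. With the replicate number as a block these counts were 3, against 9.51%, and 4, against 22%. No IGF pathway gene passed by edgeR in either dOVA line against its namesake without the block, although 3 of 13 had an unadjusted p under 0.05 in each. Igfbp4 was nearest in MeVa2.1.dOVA, with no overlap (log2 difference -2.99, adjusted p = 0.0607), and it passed there with the replicate number as a block (-3.12, adjusted p = 0.0191), where 2.60% of all genes did. DESeq2 called Igfbp3 and Igfbp4 in MeVa2.1.dOVA against MeVa2.1, and these and Igfbp6 in MeVa2.2.dOVA against MeVa2.2.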

How the data were processed

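Whole-number read counts per gene, one table per library, were used as deposited by the authors. The submitters' processing notes name the GRCm38 build and, as tools, DESeq2 1.30.1, HTSeq 0.10.0 and STAR 2.6.0c. The annotation release and the strand setting are not given in the sources used here. Pdcd2, whose exons lie wholly within opposite-strand exons of Tbp, held 13050 counts, so the counting kept strands apart there. Tally lines, 35.78% to 40.01% of each library and mostly reads of low mapping quality, were left out, so reads shared by near-identical copies or overlapping genes are not in the counts. Levels are CPM of gene counts. Gene positions and merged exon lengths came from GENCODE M21 (GRCm38), which held 55144 of the 55471 identifiers with a symbol.

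All 12 libraries were fitted in R 4.3.3 with edgeR 4.0.16 (filterByExpr, minimum count 10, TMM, glmQLFit and glmQLFTest with a mean per line and 8 residual degrees of freedom) and adjusted by Benjamini-Hochberg over 13985 genes. The SE restates the F statistic. DESeq2 1.42.0 was an alternative. The fit was also run on simulated counts, for MeVa2.1.dOVA against MeVa2.1 only. Those counts had no shared replicate effect, so the run is no check of the fit under such an effect. The labels' replicate numbers were checked for pairing by correlating same-numbered deviations from the line means over genes. In MeVa2.2.dOVA against MeVa2.2 replicates 1, 2 and 3 were at 0.082, 0.64 and 0.521. Every pair of the other comparisons exceeded 0.1 (0.105 to 0.534). The main fit nevertheless has no replicate block, and results with the block are given as an alternative. All 30 members could be named, and of the related lists those that passed a test and up to 6 others per list with the highest mean CPM (Igf1 was named after its values were seen). Members and lists were chosen with earlier results of these data known. No replicates agreed within counting noise (chi-square per degree of freedom 18.5 to 136).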

Additional observations from a re-analysis of the deposited data

Results flagged for a closer look

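Slc22a18 had opposite differences in the dOVA lines. All libraries of MeVa2.1.dOVA lay below those of MeVa2.1, and all libraries of MeVa2.2.dOVA lay above those of MeVa2.2. The second separation rests on 20 against 3 counts, and its nearest libraries held 2 counts each. The difference between the 2 log2 differences was -3.79, with an adjusted p of 0.159 by edgeR over all genes. Leaving out 1 replicate at a time gave -4.45 to -3.3 and an adjusted p of 0.178 to 0.368. No explanation was tested.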

How the results depend on the processing

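No recomputed log2 difference changed sign under any alternative. Only those with a low unadjusted p in the main edgeR fit were recomputed, so the smallest differences could not show a reversal. Of the recomputed log2 differences, 344 kept their side of the threshold, 9 newly passed and 3 no longer passed, and all 75 levels stayed within 1 SD under TMM-scaled CPM. Of the recomputed counts of members that passed, 96 stayed the same or within 1.5 times and 16 moved further. Scaling by RLE size factors or by library totals changed no count of members that passed beyond 1.5 times. Without the filter on low counts, 1 member passed in MeVa2.1.dOVA against MeVa2.1 (Peg3), 1 in MeVa2.2.dOVA against MeVa2.2 (Mest), 2 in MeVa2.1 against MeVa2.2 (H19 and Slc22a18) and 7 for any difference. With DESeq2, 1 passed in MeVa2.2.dOVA against MeVa2.2 (Mest), 2 between the dOVA lines (Kcnq1ot1 and Plagl1) and 5 for any difference. Without the 2 libraries that stand apart, chosen after seeing the data, 1 passed in MeVa2.2.dOVA against MeVa2.2 (Mest). These alternative counts are not set against the share of all genes, so they are descriptions. The causes of these changes were not tested.

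With the replicate number as a block, 1 member passed in MeVa2.1.dOVA against MeVa2.1 (Peg10), 2 in MeVa2.2.dOVA against MeVa2.2 (Mest, adjusted p = 0.026, and Peg10, adjusted p = 0.043, by edgeR) and 5 for any difference. The share of all genes with the block is not given for the last 2 counts, so they are descriptions. In MeVa2.2.dOVA against MeVa2.2 the pairing check gave 0.082, 0.64 and 0.521 for replicates 1, 2 and 3, so only replicate 1 was below its limit of 0.1. The block changed no call of a member in the other comparisons of lines. Among the related genes it added Herc3 (adjusted p = 0.0127), Sfmbt2 (0.0292) and Igfbp6 (0.0159) in MeVa2.2.dOVA against MeVa2.2, where 7 of 11 cell type markers passed instead of 3, and Phactr2 (0.0237) for the difference of the dOVA differences, all by edgeR.

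Leaving out 1 replicate at a time gave 0 to 2 members between the dOVA lines, 0 to 1 in MeVa2.2.dOVA against MeVa2.2 and 2 to 4 for any difference. A fit with 2 replicates in a line assumes that they vary like the others, and its filter needs only 2 libraries. Depth limits the 19 untested members, since 3 counts correspond to 0.0842 to 0.185 CPM in a single library.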

Other observations

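Among other imprinted genes, the tetraspanin gene Cd81, at the edge of the Kcnq1ot1 domain, was at 226 to 698 CPM over the 12 libraries, while Phlda2 and Ascl2 of that domain were near 0. Ube3a, a ubiquitin ligase gene next to the Snrpn-Ndn domain and imprinted in neurons, was at 154 to 343 CPM, while Snrpn, Ndn and Magel2 had no count. Wars, a tRNA synthetase gene listed with the Dlk1-Meg3 region, was at 140 to 433 CPM, and Meg3 had no count. Dnmt1, which copies DNA methylation at replication, was highest in replicate 3 of each line, at 336 CPM in MeVa2.1 and 272 CPM in its dOVA line, and at 327 CPM in MeVa2.2 and 334 CPM in its dOVA line, as Peg10 was.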
